A study of Mus musculus with 36 samples.

Results

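The genes of oxidative phosphorylation were followed in a mouse chondrocyte line through a time course of interleukin-1β (IL-1β), in cells with and without depletion of the ciliary protein IFT88. They were taken as the protein-coding rows of the count table whose symbols begin with *Nduf* plus the letter a, b, c, s or v, with *Uqcr*, *Cox4* to *Cox8* or *Atp5*, or with *mt-Nd*, *mt-Co*, *mt-Cytb* or *mt-Atp*, together with *Sdha*, *Sdhb*, *Sdhc* and *Sdhd*. This gave 105 of the 53421 genes in the table, 92 encoded in the nucleus and 13 in the mitochondrial genome. Of the nuclear genes, 8 carry symbols beginning *Ndufaf* and encode assembly factors of complex I, not subunits, so they were kept apart from the 84 nuclear subunit genes. By symbol, the nuclear subunits were placed in complex I (36 genes), complex II (4), complex III (8), complex IV (20, with *Ndufa4* and *Ndufa4l2* counted there) and the ATP synthase, complex V (16). The mitochondrial genes encode subunits of complex I (7), III (1), IV (3) and V (2).

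The cells were an immortalised, fibroblast-like mouse chondrocyte line of wild-type genotype. They were transfected with a pool of non-targeting siRNA (NT) or with a pool of siRNA against *Ift88* (IFT88siRNA), at 50 nM by the sample labels, grown to confluence and given 10 ng/ml IL-1β. RNA was taken at 0 h (no IL-1β) and again after 1, 2, 4 and 8 h and after 24 h, with 3 libraries in each of the 12 conditions and 36 in all. It is a single line, no source used here states that the 3 libraries of a condition were separate cultures, and the groups analysed here hold no untreated cells after 0 h. The p-values therefore measure the spread between these libraries, and a change after 0 h cannot be told apart from time in culture.

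Oxidative phosphorylation takes place in the inner mitochondrial membrane. Complexes I and II pass electrons to ubiquinone, complex III passes them on to cytochrome c, complex IV hands them to oxygen, and complex V uses the proton gradient built by complexes I, III and IV to make ATP. Complexes I, III, IV and V mix nuclear subunits, each transcribed from its own promoter and imported as protein, with mitochondrial subunits cut from long transcripts of both strands of the mitochondrial genome, whereas complex II is nuclear throughout.

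Library totals ran from 19337022 to 38304127 assigned counts, with medians of 21672803.5 in NT and 25873754 in IFT88siRNA libraries. *Ift88* itself was at 9.16, 8.65 and 9.35 CPM (counts scaled to library size with TMM factors) in NT and at 2.59, 2.88 and 2.82 CPM in IFT88siRNA at 0 h, with no overlap, and it fell at every time point (log2 change of IFT88siRNA against NT -1.71 ± 0.11 SE at 0 h). Of 8 chondrocyte markers, 5 averaged over 1 TPM (a level per transcript length, scaled to library size): *Sox9* stood at 14.7 TPM, *Comp* at 15.2 and *Col2a1* at 3.59, whereas *Acan*, the aggrecan gene, was at 0.0591 and *Col9a1* at 0.0118. All 10 fibroblast markers averaged over 1 TPM, with *Col1a2* at 767 TPM. The leukocyte markers *Ptprc* (0.0482 TPM), *Csf1r* (0.104) and *Adgre1* (0.00518) were close to 0, while *Cd68* was at 7.0 TPM and *Lyz2* at 2.45. Of all tested genes in NT, 30.7% were higher and 30.2% lower at 2 h, and 21.7% and 23.2% at 24 h (adjusted p under 0.05 in edgeR). Of the fibroblast markers, 8 rose and 2 fell at 2 h in NT, and 3 rose and 7 fell at 24 h. Their part in the results on the respiratory chain was not tested, and in bulk RNA a change in the number of cells of a kind cannot be told apart from a change in RNA per cell.

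The mouse nuclear genome carries a copy of much of the mitochondrial genome on the minus strand of chromosome 1, and the sequences show how nearly alike they are. For *mt-Nd3* (mitochondrial genome, M:9459-9806, GRCm38) the first 60 bases are printed with those of its copy *Gm28438* (chr1:24612775-24613119), and for *mt-Co2* (M:7013-7696) bases 31 to 90 with those of *Gm28661* (chr1:24614885-24615565). Capitals mark the single base at which the first pair differs.
*mt-Nd3*: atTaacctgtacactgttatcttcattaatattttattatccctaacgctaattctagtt
*Gm28438*: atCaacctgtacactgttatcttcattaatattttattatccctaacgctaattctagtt
*mt-Co2*: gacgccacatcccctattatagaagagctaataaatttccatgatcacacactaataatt
*Gm28661*: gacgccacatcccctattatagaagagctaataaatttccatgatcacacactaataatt

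Counted from 1 at the start of *mt-Nd3*, the substitution from gene to copy is T3C, and the compared lengths are 99.71% identical. The printed stretches of *mt-Co2* and its copy are the same in every base. Of all 75-base windows of a gene, the length of one read, 99.86% also occurred in the chromosome 1 copy for *mt-Co3*, 99.51% for *mt-Atp6*, 99.51% for *mt-Co2*, 98.65% for *mt-Nd4l* and 97.81% for *mt-Nd3*. The share was 61.5% for *mt-Nd4* and 27.53% for *mt-Co1*. No window of *mt-Nd1*, *mt-Nd2*, *mt-Nd5*, *mt-Nd6*, *mt-Cytb* or *mt-Atp8* was found in the annotated copies. Only annotated copies were searched, so a match elsewhere on chromosome 1 would be missed. The stretch between *Gm10925*, the *mt-Atp6* copy (up to base 24614651), and *Gm28661* (from base 24614885) was thus not searched. The counting tool's default drops read pairs that map to several places. The counts of the first 5 genes may therefore rest on a small part of their reads, which was not tested, and their levels are uncertain.

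The level of a mitochondrial gene depended on whether it was read as counts or as TPM. By counts per kilobase of exon, averaged over the 36 libraries, *mt-Co1* stood at 60390 and *mt-Cytb* at 35350, whereas *mt-Co2* stood at 1547, *mt-Atp6* at 1407, *mt-Co3* at 1352 and *mt-Nd3* at 229. In TPM, which share out ambiguous reads between transcripts, *mt-Co3* was at 4420, *mt-Atp6* at 4268 and *mt-Co2* at 3386, near *mt-Cytb* at 2964. The copies were counted too: *Gm28661* averaged 2170 counts a library against 1058 for *mt-Co2*, and *Gm10925* averaged 2114 against 958 for *mt-Atp6*. *mt-Atp8* lay between, at 2482 counts per kilobase, and shares 43 of its 204 bases with *mt-Atp6*. Whether *mt-Atp8* also has an unannotated copy on chromosome 1 was not tested. Nor was it tested whether the copies account for the gap between counts and TPM. In the plot of level by counts and by TPM the open circles, genes with over 90% shared windows, sit to the left of the other mitochondrial genes. They stand at a like height, except *mt-Nd3*, which is lower at 369 TPM.

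**Figure D1:**
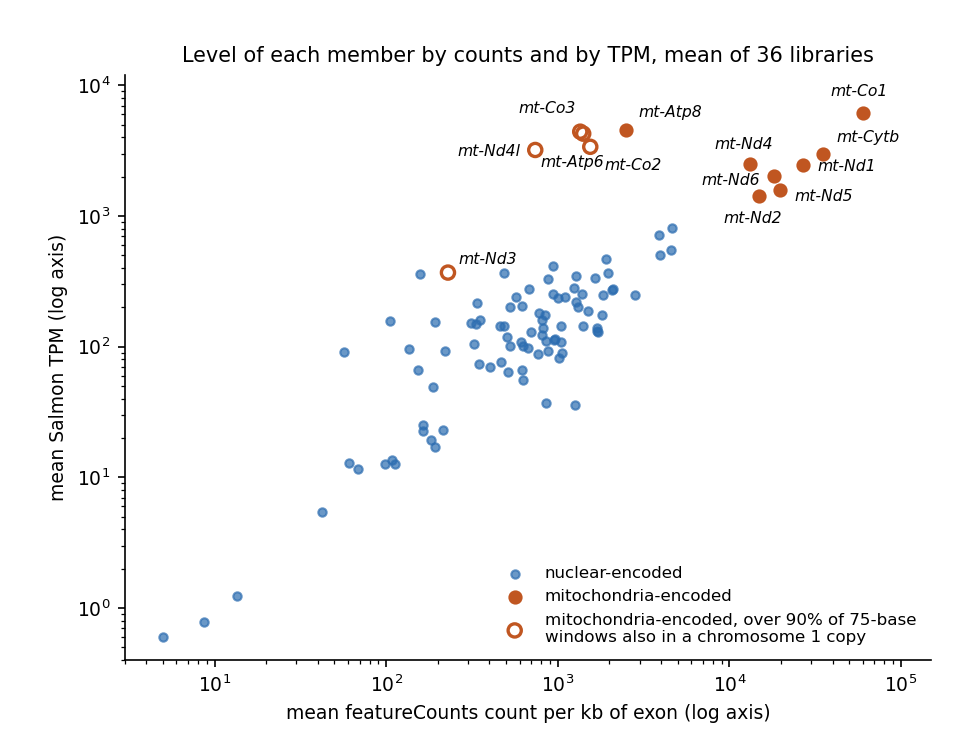
Level of each member as the mean over 36 libraries, with counts per kilobase of exon on the horizontal axis and TPM on the vertical axis, both logarithmic; each point is a gene with a mean of at least 0.5 TPM. The open circles are 5 mitochondrial genes for which most 75-base windows recur on chromosome 1, and they lie far to the left of *mt-Co1* and *mt-Cytb*.

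In TPM, 12 of the 13 mitochondrial genes were above every nuclear member. *mt-Co1*, a catalytic core subunit of complex IV, averaged 6148 TPM and *mt-Atp8* 4564, while *mt-Nd3* was lowest at 369. Among nuclear members *Atp5b*, which encodes the catalytic β subunit of the ATP synthase, led with 807.7 TPM, followed by *Cox4i1* (712 TPM), *Cox8a* (547), *Cox6a1* (503) and *Ndufa4* (467). Among genes counted as nuclear subunits, the lowest detected outside the complex IV isoforms was *Atp5s* at 11.5 TPM. It was placed in complex V by its symbol alone. *Ndufb4* at 23.1 TPM was lowest in complex I. The 4 complex II genes were of like level, from *Sdha* (144.3 TPM, the flavoprotein) through *Sdhd* (128.8) and *Sdhb* (122.1) to *Sdhc* (108.5), and the ranges of neighbours in that order overlapped over the 36 libraries.

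Complex IV has paired isoforms, one used widely and the other in particular tissues, and the widely used one was the higher in 36 of 36 libraries for each pair. *Cox4i1* averaged 712 TPM against 1.23 for *Cox4i2*, an isoform known from lung. *Cox6a1* averaged 503.3 TPM against 0.786 for *Cox6a2*, and *Cox7a2* 249.3 against 0.599 for *Cox7a1*, where the lower members are the heart and muscle forms. *Cox6b1* stood at 275.9 TPM and *Cox6b2*, known from testis, at 12.8. *Cox8a* stood at 547 TPM, *Cox8b* had 4 counts in all 36 libraries together and *Cox7b2* had 1. *Cox8c* had no count in any library, and a count of 0 allows up to 3 counts, or 0.155 CPM in the smallest library. *Ndufa4* averaged 467.1 TPM against 19.2 for *Ndufa4l2*. The c-ring genes of complex V, whose mature proteins are identical, were ordered *Atp5g3* (346.8 TPM), *Atp5g1* (155.6) and *Atp5g2* (37.0), again with no overlap between neighbours in that order. *Cox7a1*, *Cox7b2*, *Cox8b* and *Cox8c* were too low to be tested in any comparison, and *Cox6a2* could be tested only between siRNA groups.

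As a share of all counts, the 13 mitochondrial genes took 0.696% to 1.19% of a library (median 0.987%). The 84 nuclear subunit genes, without the assembly factors, took 0.467% to 0.696% (median 0.583%). In NT the nuclear share was 0.621%, 0.610% and 0.635% at 0 h (mean 0.622% ± 0.0124 SD, n = 3). It was already lower at 1 h (0.560% ± 0.00536) and 2 h (0.560% ± 0.0268) and lowest at 4 h (0.473% ± 0.00496), each without overlap with 0 h. By 24 h it was back at 0.623% ± 0.0142. In IFT88siRNA it moved from 0.649% ± 0.013 at 0 h to 0.594% ± 0.0108 at 1 h and 0.567% ± 0.0141 at 2 h. It then stood at 0.503% ± 0.0223 at 4 h and 0.661% ± 0.0317 at 24 h. The mitochondrial share in NT went from 1.12% ± 0.0592 at 0 h to 0.960% ± 0.0607 at 4 h and 0.904% ± 0.0376 at 8 h. In IFT88siRNA it was 1.05% ± 0.0697 at 0 h, 1.08% ± 0.0437 at 2 h, 1.04% ± 0.0731 at 4 h and 0.906% ± 0.211 at 8 h, each overlapping 0 h. The ratio of mitochondrial to nuclear counts was therefore higher at 4 h (2.03 ± 0.150 in NT, 2.07 ± 0.239 in IFT88siRNA) than at 0 h (1.8 ± 0.0596 and 1.63 ± 0.138). These shares also move when a few other genes take more of a library, which scaling between libraries allows for and a share does not.

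**Figure D2:**
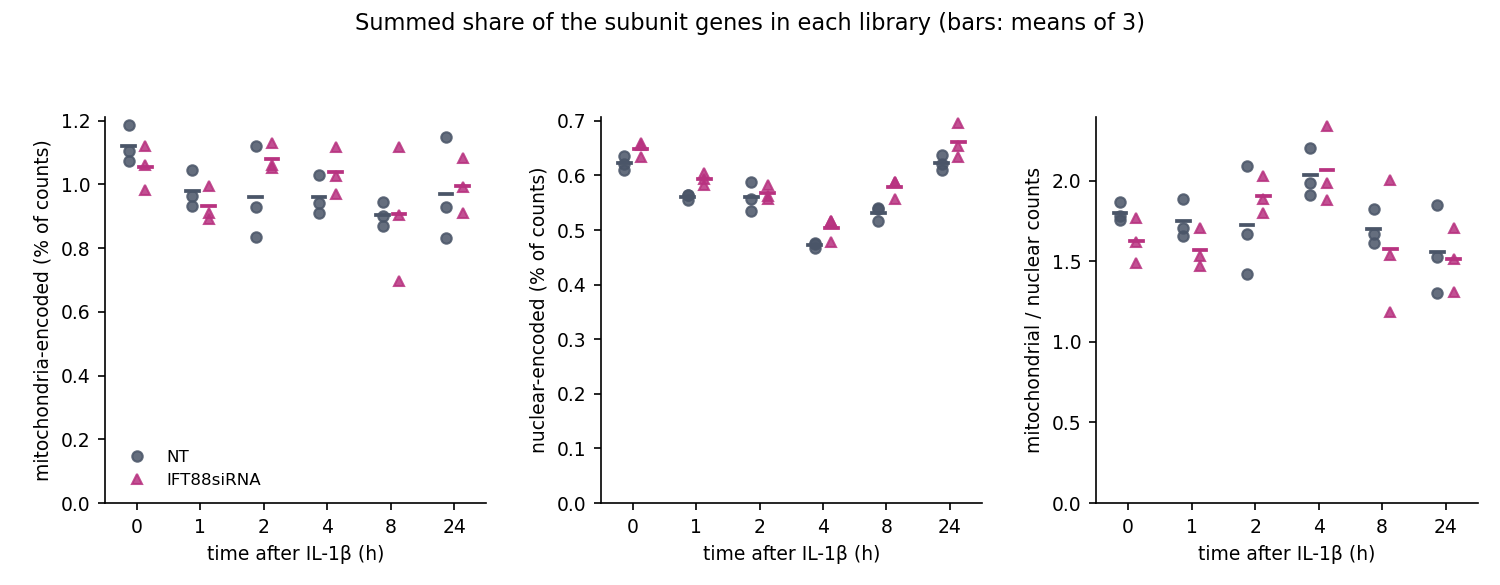
Share of all counts taken by the mitochondrial genes (left) and the nuclear subunit genes (middle), in percent, and their ratio (right), against hours after IL-1β. Each point is a library, circles NT and triangles IFT88siRNA, and bars are means of 3. The mean nuclear share is below 0 h from 1 to 8 h and lowest at 4 h in both siRNA groups. In NT it goes from 0.622% at 0 h to 0.560% at 1 and 2 h and 0.473% at 4 h, and is back at 0.623% at 24 h. The ratio is at its highest at 4 h.

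Promoter sequences were found for 74 of the 92 nuclear members in a RefSeq table for GRCm38.p6 (250 bases before to 50 after the start). NRF1 is a factor long tied to respiratory genes, and its 10-base motif, searched on both strands and shown in capitals for *Ndufaf4*, was in the promoters of 16 of 67 subunit genes (23.9%) against 4.78% of all 27025 promoters. The ETS motif CCGGAAG, bound by NRF2 (GABP), was in 22.4% against 9.12%, the YY1 motif ATGGCGG in 13.4% against 4.19%, the cAMP-response element TGACGTCA in 5.97% against 1.88%, and the oestrogen-related receptor motif TCAAGGTCA in 2.99% against 0.407%. The subunit promoters were also richer in G and C (median 57.3% against 52.7%), and all of these motifs but the last 2 are rich in G and C. The promoters of 5 genes the results turn on are printed with motif hits in capitals, NRF1 for *Ndufaf4* (chr4:24897833-24898132, plus strand), the cAMP-response element for *Uqcrfs1* (chr13:30545267-30545566, minus strand) and the ETS motif, on the other strand, for *Cox6b1* (chr7:30626065-30626364, minus strand). *Cox7a2l* (chr17:83514284-83514583, minus strand) and *Cox6b2* (chr7:4753045-4753344, minus strand) held none of the 5 motifs in this window.
*Ndufaf4*: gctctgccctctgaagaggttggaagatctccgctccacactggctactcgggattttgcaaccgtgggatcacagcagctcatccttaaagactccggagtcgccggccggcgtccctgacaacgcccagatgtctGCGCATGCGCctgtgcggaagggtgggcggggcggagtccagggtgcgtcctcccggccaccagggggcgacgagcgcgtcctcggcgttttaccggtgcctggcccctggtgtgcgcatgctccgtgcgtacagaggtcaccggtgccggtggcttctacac
*Uqcrfs1*: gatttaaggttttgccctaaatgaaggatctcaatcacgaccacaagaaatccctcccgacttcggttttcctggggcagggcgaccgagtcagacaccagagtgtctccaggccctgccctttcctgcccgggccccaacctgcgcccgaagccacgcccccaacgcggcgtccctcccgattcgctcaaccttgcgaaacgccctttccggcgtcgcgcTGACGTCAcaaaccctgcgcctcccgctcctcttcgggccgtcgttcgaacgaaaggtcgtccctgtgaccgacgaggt
*Cox6b1*: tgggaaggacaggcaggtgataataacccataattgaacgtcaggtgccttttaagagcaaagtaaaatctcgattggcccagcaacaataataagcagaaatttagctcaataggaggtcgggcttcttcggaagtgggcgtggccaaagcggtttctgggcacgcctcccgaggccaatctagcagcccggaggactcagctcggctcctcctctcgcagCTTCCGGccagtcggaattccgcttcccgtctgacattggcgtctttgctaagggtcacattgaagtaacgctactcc
*Cox7a2l*: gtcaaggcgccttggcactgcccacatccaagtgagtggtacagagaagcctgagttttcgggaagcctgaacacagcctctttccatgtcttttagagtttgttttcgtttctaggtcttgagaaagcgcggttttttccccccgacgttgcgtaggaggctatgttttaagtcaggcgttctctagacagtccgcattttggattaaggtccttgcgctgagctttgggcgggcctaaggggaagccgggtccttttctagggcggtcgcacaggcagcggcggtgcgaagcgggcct
*Cox6b2*: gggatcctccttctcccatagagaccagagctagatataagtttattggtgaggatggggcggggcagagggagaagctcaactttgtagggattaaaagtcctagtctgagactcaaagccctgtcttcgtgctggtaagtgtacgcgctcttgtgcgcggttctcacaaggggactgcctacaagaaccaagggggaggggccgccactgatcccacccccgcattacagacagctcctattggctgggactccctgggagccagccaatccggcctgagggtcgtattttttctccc

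After IL-1β in NT cells, nuclear subunit mRNAs were mostly above their 0 h level at 2 h and below it at 4 and 8 h, by small amounts. At 2 h, 40 of 79 tested nuclear subunits rose and 3 fell, with a median log2 change of 0.14. At 4 h, 1 rose and 30 fell (median -0.10), and at 8 h, 3 rose and 39 fell (median -0.15). At 1 h the counts were 14 up and 6 down (median 0.05) and at 24 h 13 up and 3 down (median 0.05). A gene was called risen or fallen at a Benjamini-Hochberg adjusted p under 0.05 in edgeR's quasi-likelihood test over 16048 genes, and the median of all these genes stayed between -0.02 and -0.01.

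A large part of all genes changed after IL-1β, and the subunits' counts are to be read against that. At 1 h, 26.0% of all tested genes were higher and 25.8% lower. At 2 h these shares were 30.7% and 30.2%, at 4 h 31.2% and 29.7%, at 8 h 27.1% and 25.3%, and at 24 h 21.7% and 23.2%. Among nuclear subunits 50.6% rose and 3.80% fell at 2 h, 1.27% rose and 38.0% fell at 4 h, and 3.80% rose and 49.4% fell at 8 h. The split between directions was thus more one-sided than that of all genes at these times, while 17.7% risen at 1 h and 16.5% at 24 h lay under the background.

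The direction at 2 h depended on the scale. On log2(TPM + 1) the median of all genes itself moved by -0.22 at 2 h, and the nuclear subunits' median became -0.12. Relative to all genes the subunits were still above at 2 h, whereas their own medians on TPM were below 0 h at 1, 2 and 24 h as well (-0.14, -0.12 and -0.07). TPM is a share of a library and not an amount per cell, so neither scale gives an absolute change. At 4 and 8 h they were below 0 h on both scales (TPM medians -0.36 and -0.26). Every rise at 1 or 2 h named here is relative to the other genes in this sense.

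**Figure D3:**
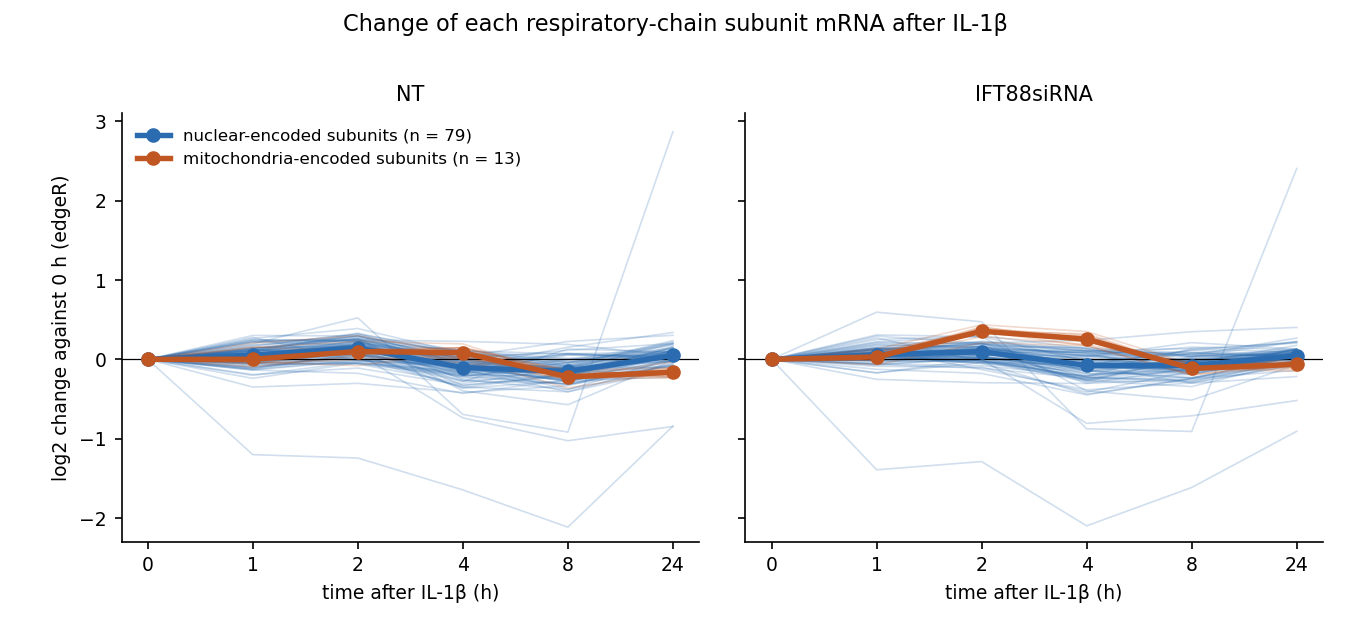
Log2 change of each tested subunit mRNA against 0 h (vertical axis) by hours after IL-1β (horizontal axis) in NT (left) and IFT88siRNA (right); thin lines are genes, thick lines with points the medians of 79 nuclear and 13 mitochondrial subunits. The nuclear medians lie at 0.14 in NT at 2 h (-0.12 on log2(TPM + 1)) and at -0.15 at 8 h, and the mitochondrial median in IFT88siRNA peaks at 0.35 at 2 h (0.14 on that scale).

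In each of the 5 complexes more genes rose than fell at 2 h in NT and more fell than rose at 4 and 8 h. Complex I had 15 genes up and 2 down at 2 h, 0 up and 16 down at 4 h and 1 up and 15 down at 8 h, of 36. *Ndufa2* (log2 change 0.39) and *Ndufa1* (0.33), accessory subunits, rose at 2 h. *Ndufv2*, a subunit of the NADH-binding arm, was at 41.4, 40.8 and 44.9 CPM at 0 h and at 34.9, 30.2 and 28.7 CPM at 4 h, without overlap, and fell by 0.43 ± 0.065 SE on the log2 scale. *Ndufab1*, the mitochondrial acyl carrier protein, fell by 0.42 at 4 h, and *Ndufs4* fell by 0.41 at 8 h. *Ndufv3* rose at 24 h (log2 change 0.34).

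In complex II, *Sdhc*, a membrane anchor, was at 68.7, 71.8 and 75.7 CPM at 0 h and at 89.3, 90.3 and 86.9 CPM at 1 h, and rose (log2 change 0.30 ± 0.056). *Sdha* was at 241, 234 and 239 CPM at 0 h and at 192, 180 and 178 CPM at 4 h, and fell by 0.36 ± 0.044. The groups did not overlap in CPM for either gene. In TPM, *Sdhc* went only from 110.6 ± 6.63 SD at 0 h to 114.1 ± 7.62 at 1 h. *Sdhb*, the iron-sulphur subunit, rose at 2 h with a log2 change of 0.12, a call lost without the libraries numbered 1 (adjusted p = 0.316) or 2 (adjusted p = 0.302) and with upper-quartile scaling (adjusted p = 0.815). *Sdhd* fell by 0.15 at 4 h, a call lost without the libraries numbered 2 (adjusted p = 0.0651) or 3 (adjusted p = 0.224) and in DESeq2 (adjusted p = 0.0601).

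In complex III, *Uqcr11* rose at 2 h (log2 change 0.32) and *Uqcrfs1*, the Rieske iron-sulphur protein, at 1 and 2 h (0.22 and 0.23). *Uqcrh*, the hinge protein, fell by 0.28 at 8 h, *Uqcrb* by 0.26 at 8 h and *Uqcrc1*, a core protein, by 0.22 at 4 h. *Uqcrq* went the other way at 24 h, from 41.5, 41.7 and 40.1 CPM at 0 h to 56.5, 47.0 and 48.6 CPM, and rose (0.30 ± 0.069). In complex IV, 11 of 15 tested genes rose and 1 fell at 2 h, led by *Cox6a1* (0.32), *Cox6b1* (0.30), *Cox4i1* (0.29) and *Cox8a* (0.26). At 8 h 1 rose and 9 fell, among them *Cox7a2* (-0.38) and *Ndufa4* (-0.26). In complex V, 8 of 16 rose and 0 fell at 2 h, with *Atp5l* (subunit g, 0.27), *Atp5g3* (0.24) and *Atp5o* (the oligomycin sensitivity protein, 0.22) ahead. At 4 h 7 fell, with *Atp5g2* at -0.33 and *Atp5s* at -0.36, and at 8 h 11 fell, with *Atp5j2* (subunit f) at -0.41. The call for *Atp5s* was lost without the libraries numbered 1 (adjusted p = 0.137) and in DESeq2 (adjusted p = 0.0549), and 47.9% of the exon bases of *Atp5o* overlap other annotated genes.

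Over all times together, 90 of 100 tested members changed in NT by the joint test, near the 88.4% of all genes that did so, and 5 also passed 1.5-fold at a time point, where 50.0% of all genes met both thresholds. These were *Ndufa4l2*, *Cox6b2*, *Cox4i2*, *Ndufaf4* and *Ndufaf6*. All 5 are isoforms or assembly factors. *Cox4i2* lay between 0.220 and 0.961 CPM in NT, and its fall at 8 h (log2 change -1.03) was lost without the libraries of any 1 replicate number (adjusted p = 0.104, 0.113 and 0.0611) and in DESeq2 (adjusted p = 0.112).

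*Ndufa4l2* encodes a paralogue of *Ndufa4* that is known to be induced by hypoxia. It was at 3.80, 4.33 and 3.77 CPM at 0 h in NT, at 2.14, 1.98 and 2.15 CPM at 8 h and at 32.2, 28.7 and 26.2 CPM at 24 h. All 3 libraries at 24 h stood above every earlier library. It fell by 0.92 ± 0.19 at 8 h and rose at 24 h (log2 change 2.87 ± 0.13, adjusted p = 1.5e-15 in edgeR). *Ndufa4* itself fell at 8 h and was 0.18 lower on the log2 scale at 24 h, the latter call being lost without the libraries numbered 3 (adjusted p = 0.114).

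*Cox6b2* was at 6.88, 5.56 and 5.41 CPM at 0 h in NT and at 0.858, 1.5 and 1.67 CPM at 8 h. It was below its 0 h libraries at every later time, without overlap, and fell by 2.12 ± 0.21 at 8 h and by 0.84 ± 0.17 at 24 h. *Cox7a2l* encodes a factor that joins complexes III and IV into a supercomplex. It was at 62.0, 61.4 and 60.3 CPM at 0 h, at 72.2, 77.9 and 70.8 CPM at 2 h and at 43.0, 38.5 and 41.7 CPM at 8 h. It rose at 2 h (log2 change 0.26 ± 0.049), fell by 0.57 ± 0.051 at 8 h and was back at its 0 h level, with overlapping libraries, at 24 h (-0.01 ± 0.049).

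Of the 8 *Ndufaf* assembly factors of complex I, 0 rose and 3 fell at 1 h, 0 and 4 did so at 2 h, 1 and 2 at 4 h, 3 and 1 at 8 h, and 0 and 1 at 24 h. The falls made up 37.5% at 1 h and 50.0% at 2 h, where 25.8% and 30.2% of all genes fell, and the rises 37.5% at 8 h, where 27.1% of all genes rose. *Ndufaf4*, whose promoter holds the NRF1 motif printed above, was at 26.4, 28.4 and 29.6 CPM at 0 h in NT, at 14.4, 14 and 16.1 CPM at 1 h and at 38.2, 37.1 and 37.3 CPM at 8 h. It fell by 0.93 ± 0.065 at 1 h and rose at 4 h (log2 change 0.24) and at 8 h (0.42 ± 0.058), with no overlap with 0 h at any of these times. The rise at 4 h was lost with upper-quartile scaling (adjusted p = 0.104). *Ndufaf3*, whose protein works with that of *Ndufaf4*, was at 8.32, 6.39 and 7.22 CPM at 0 h and at 4.42, 4.86 and 5.47 CPM at 4 h, and fell by 0.56 ± 0.12 there and by 0.50 at 8 h. *Ndufaf6* fell by 0.69 at 1 h and by 0.77 at 2 h, both calls being lost without the libraries numbered 2 (adjusted p = 0.237 and 0.0603). *Ndufaf7* fell by 0.38 at 2 h and by 0.39 at 4 h, and *Ndufaf1* by 0.39 at 2 h.

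**Figure D4:**
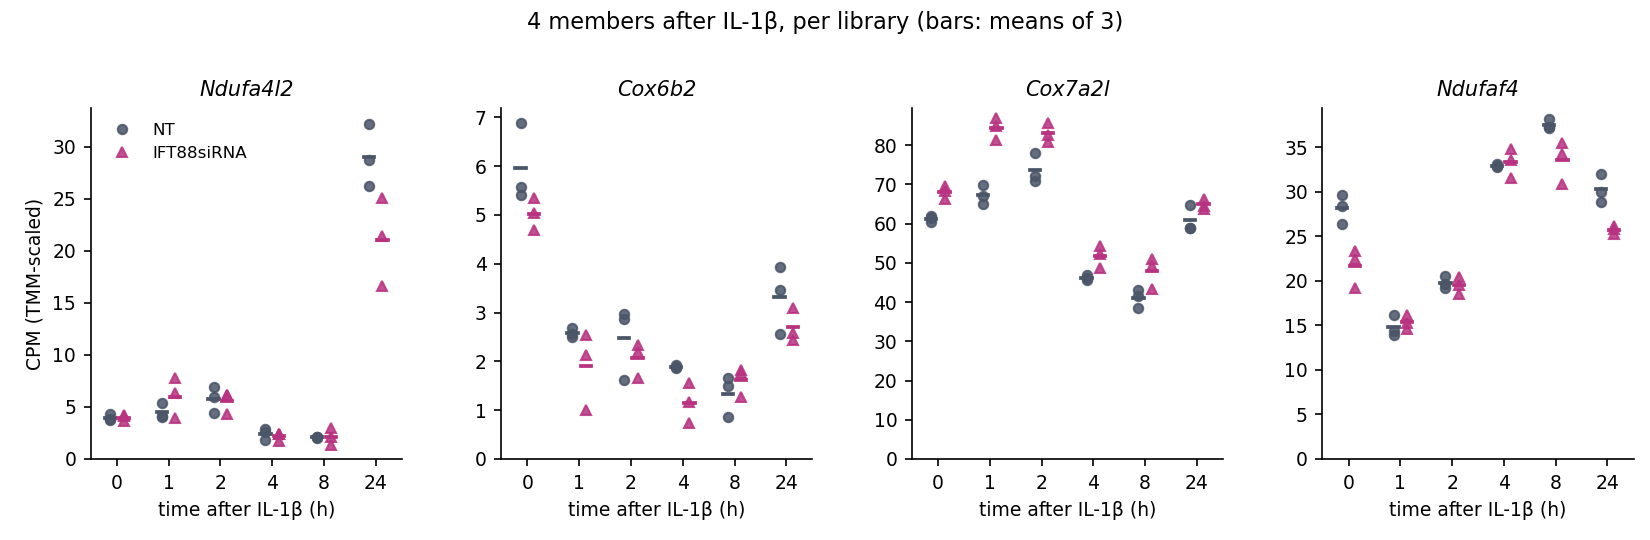
CPM (TMM-scaled, vertical axis) of *Ndufa4l2*, *Cox6b2*, *Cox7a2l* and *Ndufaf4* in each library against hours after IL-1β, circles NT and triangles IFT88siRNA, bars the means of 3. *Ndufa4l2* stands at 26.2 to 32.2 CPM at 24 h in NT against 3.77 to 4.33 CPM at 0 h, and *Ndufaf4* falls at 1 h before it rises at 8 h.

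Few mitochondrial subunits were called in NT before 8 h. At 2 and 4 h 1 of 13 rose and 0 fell, the gene being *mt-Atp6* both times (log2 change 0.23 and 0.19, but -0.07 and -0.06 on log2(TPM + 1)). Its call was lost at 2 h without the libraries numbered 3 (adjusted p = 0.053), and at 4 h without those numbered 1 (adjusted p = 0.0904) or 2 (adjusted p = 0.425) and in DESeq2 (adjusted p = 0.0635), and at both times with upper-quartile scaling (adjusted p = 0.245 and 0.482). At 8 h 0 rose and 7 fell (*mt-Atp6*, *mt-Atp8*, *mt-Co1*, *mt-Co3*, *mt-Nd1*, *mt-Nd2* and *mt-Nd4*), with a median log2 change of -0.22 over the 13, and 53.8% had fallen against 25.3% of all genes. *mt-Co1* was at 3912, 3813 and 4164 CPM at 0 h and at 3208, 3406 and 3295 CPM at 8 h, without overlap, and fell by 0.26 ± 0.083. At 24 h *mt-Co3* and *mt-Cytb* fell by 0.20 and 0.22. At 1 h no mitochondrial gene was called by edgeR or DESeq2, with 1 at an unadjusted p under 0.05.

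The calls for mitochondrial genes rested on few libraries. The 7 falls at 8 h became 4 in DESeq2, 1 without the libraries numbered 1, 9 without those numbered 2 and 6 without those numbered 3. The 2 falls at 24 h became 0 without the libraries numbered 1 or 2, 10 without those numbered 3, and 0 in DESeq2. Replicate libraries were further apart in mitochondrial than in nuclear genes: over genes with a mean count of at least 500, the pooled standard deviation of log2 CPM within conditions had a median of 0.141 for 11 mitochondrial genes (0.114 to 0.158) and 0.0806 for 72 nuclear subunits (0.0472 to 0.128). Within conditions the mitochondrial genes deviated together, with a median pairwise correlation of 0.907 over the 36 libraries, against 0.557 among nuclear subunits. The mean deviation of the mitochondrial genes ran against that of the nuclear subunits (Pearson r = -0.71, Spearman rho = -0.70, and r = -0.70 without the 2 libraries farthest out). The same library scaling enters both means, so this is a description of these libraries.

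In IFT88siRNA cells, libraries that enter no NT value, the nuclear subunits had 10 up and 3 down of 79 at 1 h, 17 and 3 at 2 h, 4 and 26 at 4 h, 3 and 19 at 8 h, and 7 and 3 at 24 h. Their medians were 0.06, 0.10, -0.08, -0.08 and 0.05. Of all 16129 tested genes, 21.6% were higher and 21.6% lower at 1 h, 28.9% and 28.5% at 2 h, 30.4% and 29.4% at 4 h, 25.5% and 22.3% at 8 h, and 18.9% and 20.9% at 24 h. The rises at 2 h (21.5% of nuclear subunits) were thus under the background and the falls at 4 h (32.9%) and 8 h (24.1%) near it, while 3.80% fell at 2 h, 5.06% rose at 4 h and 3.80% rose at 8 h. On log2(TPM + 1) the medians were -0.09, -0.13 and -0.05 at 1, 2 and 24 h, again the opposite sign.

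By the joint test 73 of 100 members changed in IFT88siRNA, under the 86.0% of all genes, and 5 also passed 1.5-fold at a time point, where 48.2% of all genes met both thresholds. These were *Ndufa4l2*, *Cox6b2*, *Ndufaf3*, *Ndufaf4* and *Ndufaf6*. *Ndufa4l2* was at 3.65, 4.22 and 4.09 CPM at 0 h and at 16.6, 21.4 and 25.1 CPM at 24 h, and rose (log2 change 2.40 ± 0.19). *Cox6b2* was at 5.04, 5.34 and 4.69 CPM at 0 h and at 1.16, 0.741 and 1.55 CPM at 4 h, and fell by 2.1 ± 0.24. *Ndufaf3* fell by 0.85 ± 0.11 at 4 h. *Ndufaf6* fell by 0.62 at 2 h, a call lost without the libraries numbered 2 (adjusted p = 0.193) or 3 (adjusted p = 0.14). *Cox7a2l* rose at 1 h (0.31) and 2 h (0.29), fell by 0.40 at 4 h and by 0.51 at 8 h. *Uqcrq* rose at 8 h (0.35) and at 24 h (0.40).

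Most mitochondrial subunits of IFT88siRNA cells rose at 2 h relative to other genes, on CPM with TMM scaling, while their share of all counts overlapped that at 0 h (1.08% and 1.05%). Of 13, 11 rose and 0 fell there, 84.6% against 28.9% of all genes, with a median log2 change of 0.35, and 7 rose and 0 fell at 4 h (median 0.25). *mt-Nd1* was at 1061, 921 and 997 CPM at 0 h and at 1237, 1235 and 1350 CPM at 2 h, without overlap, and rose (0.36 ± 0.093). *mt-Atp6* rose most (0.44 ± 0.10), from 37.9, 32.8 and 36.4 CPM to 47.1, 47.5 and 50.3 CPM. *mt-Co1* (0.21) and *mt-Nd3* (0.35) did not pass the test at 2 h. Leaving out the libraries numbered 1, 2 or 3 gave 12, 7 and 11 rises at 2 h and 9, 1 and 8 at 4 h. On log2(TPM + 1) 1 gene was called at 2 h and 0 at 4 h, where the median of the 13 stood at 0.14 at 2 h and that of all genes at -0.19. At 1, 8 and 24 h no mitochondrial gene was called by edgeR or DESeq2, with 0, 1 and 0 at an unadjusted p under 0.05. At 8 h the library numbered 1 had the lowest mitochondrial share of all 36 (0.696%), and without the libraries of that number the median moved from -0.11 to 0.07.

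The rise at 2 h was called in IFT88siRNA and for 1 gene in NT, but the difference between the groups was not. The 36 libraries were fitted together, with a term for the change from 0 h in IFT88siRNA less that in NT. No mitochondrial gene passed the joint test of these terms in edgeR (adjusted p from 0.392 to 0.873, with 0 at an unadjusted p under 0.05), and at 2 h alone 3 of 13 were at an unadjusted p under 0.05 and 0 passed after adjustment. DESeq2 was not run for this test.

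Comparing IFT88siRNA with NT at one time, differences in the chain were small. No member passed both an adjusted p under 0.05 and 1.5-fold at any time by edgeR or DESeq2, where 5.34% of all genes did so by edgeR (1 member, *Cox6b2* at 4 h, was past 1.5-fold at an unadjusted p under 0.05), although 30 of 101 members passed the p threshold alone at 1 or more times, against 32.3% of all genes. Nuclear subunits had 13 higher and 1 lower of 79 at 0 h (median log2 difference 0.07) and 13 higher and 2 lower at 1 h (0.09). Later they had 0 and 2 at 2 h (0.01), 2 and 1 of 78 at 4 h (0.10), 6 and 1 of 78 at 8 h (0.12), and 0 and 2 of 80 at 24 h (0.08). The medians at 4 and 8 h were thus no smaller than at 0 and 1 h although fewer genes were called. At 0 and 1 h, 66 and 69 of 79 genes stood above 0, and 47 of 79 at 2 h. At 4 and 8 h 71 and 76 of 78 did so, and 70 of 80 at 24 h. The median of all genes lay between -0.0029 and 0.0037. Nuclear subunits with a mean count of at least 500 deviated together within conditions (median pairwise correlation 0.557). The genes above 0 are therefore not separate pieces of evidence. Of all genes, 10.1% were higher and 9.43% lower at 0 h, 8.75% and 10.2% at 1 h, 0.835% and 1.93% at 2 h, 1.47% and 2.38% at 4 h, 1.66% and 2.58% at 8 h, and 3.64% and 5.02% at 24 h. The higher nuclear subunits made up 16.5% at 0 h, 16.5% at 1 h and 7.69% at 8 h. No mitochondrial subunit was called at any time by edgeR or DESeq2, and 2, 1, 3, 3, 0 and 0 of 13 were at an unadjusted p under 0.05 from 0 to 24 h. At 2 and 24 h no nuclear subunit was higher by edgeR or DESeq2, with 3 and 11 higher at an unadjusted p under 0.05.

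*Uqcrfs1* was the member lower in IFT88siRNA at most times. It was at 61.0, 55.1 and 61.9 CPM in NT and at 51.6, 55.1 and 54.8 CPM in IFT88siRNA at 0 h, where it did not pass the test (adjusted p = 0.0538). At 1 h it was at 69.4, 68.8 and 69.3 CPM in NT and at 54.2, 55.1 and 58.8 CPM in IFT88siRNA. The groups did not overlap at any of the 6 times, although at 0 h the nearest libraries all but met (55.14 and 55.1 CPM), and the log2 difference was -0.31 ± 0.046 at 1 h (adjusted p = 0.000255), -0.29 at 2 h, -0.32 at 4 h, -0.37 at 8 h and -0.19 at 24 h. With 2 libraries a group the call at 1 h held whichever replicate number was left out. Those at 2, 4, 8 and 24 h were lost without the libraries numbered 1 (adjusted p = 0.291, 0.214, 0.101 and 0.316), those at 2, 8 and 24 h without those numbered 2 (adjusted p = 0.0863, 0.064 and 0.358), and that at 2 h without those numbered 3 (adjusted p = 0.084).

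*Cox6b1* was also lower, at 65.7, 70.3 and 67.8 CPM in NT against 58.3, 56.0 and 60.1 CPM in IFT88siRNA at 1 h, with a log2 difference of -0.23 ± 0.046. It was lower at 0 h (-0.16) and 2 h (-0.36), calls lost without the libraries numbered 1 (adjusted p = 0.123 and 0.285) and, at 0 h, those numbered 3 (adjusted p = 0.131). *Cox7a2l* was higher, at 65.0 to 69.8 CPM in NT and 81.4 to 87.0 CPM in IFT88siRNA at 1 h (0.32 ± 0.044, adjusted p = 0.000156), a call that held without any 1 replicate number. At 0 h *Ndufa13* was higher (0.25), as were *Cox8a* (0.21) and *Ndufaf3* (0.31). The call for *Cox8a* was lost without the libraries numbered 3 (adjusted p = 0.168), and that for *Ndufaf3* without those numbered 2 (adjusted p = 0.254) or 3 (adjusted p = 0.218) and in DESeq2 (adjusted p = 0.105). Exons of *Ndufa13* overlap *Tssk6* on the other strand over 375 of 1251 bases, and reads were counted without regard to strand.

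At 24 h *Ndufa4l2* was lower in IFT88siRNA, at 16.6, 21.4 and 25.1 CPM against 26.2 to 32.2 CPM in NT, with a log2 difference of -0.46 ± 0.11. The call was lost without the libraries numbered 2 (adjusted p = 0.0794). *Ndufaf4* was lower at 0 h, at 22.5, 19.2 and 23.4 CPM against 26.4 to 29.6 CPM (-0.38 ± 0.070, adjusted p = 0.000526), and at 24 h (-0.24), the latter call being lost without the libraries numbered 2 (adjusted p = 0.191) or 3 (adjusted p = 0.0875). At 1, 2 and 4 h its differences were 0.04, -0.03 and 0.01, with overlapping libraries, and at 8 h -0.18 (adjusted p = 0.153), where the libraries did not overlap.

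**Figure D5:**
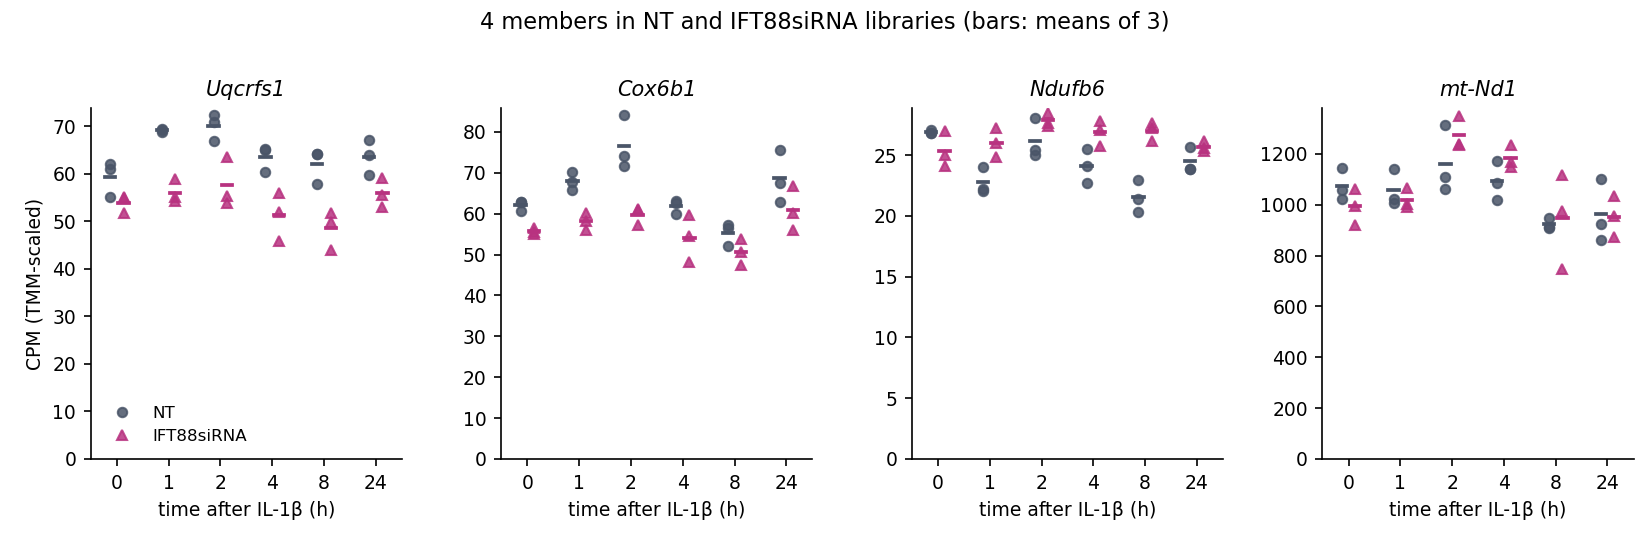
CPM (TMM-scaled, vertical axis) of *Uqcrfs1*, *Cox6b1*, *Ndufb6* and *mt-Nd1* in each library against hours after IL-1β, circles NT and triangles IFT88siRNA, bars the means of 3. The *Uqcrfs1* points of IFT88siRNA lie below those of NT at each time, and the *Ndufb6* groups part at 8 h, at 20.4 to 22.9 CPM in NT and 26.2 to 27.6 CPM in IFT88siRNA.

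The response to IL-1β differed between the siRNA groups for 2 of 101 tested members by the joint test over 5 times, where 5.53% of all 16710 genes did so. The 2 were *Ndufaf4* (adjusted p = 0.0131) and *Ndufb6* (adjusted p = 0.0179). *Ndufaf4* fell less in IFT88siRNA at 1 h (difference of log2 changes 0.43, adjusted p = 0.0143) and rose more at 4 h (0.39, adjusted p = 0.0218), from a 0 h level that was itself lower. *Ndufb6*, an accessory subunit of the membrane arm of complex I, was at 27.1, 26.8 and 26.8 CPM at 0 h and 22.9, 20.4 and 21.4 CPM at 8 h in NT, and at 24.1, 27.0 and 25 CPM and 27.6, 27.2 and 26.2 CPM in IFT88siRNA. It fell by 0.32 ± 0.063 at 8 h in NT and stood at 0.09 ± 0.058 in IFT88siRNA, a difference of 0.41 ± 0.081 (adjusted p = 0.0049). Exons of *Ndufb6* overlap *Smim27* on the other strand over 39.0% of their bases. Without the libraries numbered 1 or 2, 0 members passed the joint test, and without those numbered 3, 2 did.

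Among genes that assemble, transcribe and translate the chain, more fell than rose at 2 h and more rose than fell at 8 h. Of 36 tested assembly factors of complexes I to V outside the 105 genes, 4 rose and 19 fell at 2 h in NT, and 11 rose and 4 fell at 8 h. Of 77 mitochondrial ribosomal protein genes 6 rose and 33 fell at 2 h, and 33 rose and 6 fell at 8 h. Of 28 genes for mitochondrial transcription, RNA handling and genome maintenance 4 rose and 16 fell at 2 h, and 11 rose and 0 fell at 8 h. At 2 h the fallen made up 52.8%, 42.9% and 57.1% of these lists in turn, against 30.2% of all genes. At 8 h the risen made up 30.6%, 42.9% and 39.3% against 27.1% of all genes, so that the assembly factors lay near the background there. In IFT88siRNA the ribosomal protein genes had 5 up and 29 down at 2 h and 37 up and 4 down at 8 h, the assembly factors 4 and 16, then 13 and 2, and the transcription and RNA genes 4 and 13, then 13 and 1. There, 28.5% of all genes fell at 2 h and 25.5% rose at 8 h. Between siRNA groups at most 3 genes of any of these lists were called higher or lower at a time. The largest share was 3 lower of 27 transcription and RNA genes at 1 h (11.1%), near the 10.2% of all genes that were lower.

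Some single genes linked to the chain changed more widely, and those named here were chosen from the fixed lists after their values were seen. *AA467197* encodes a paralogue of *Ndufa4* that can replace it in complex IV. It was at 0.971, 1.07 and 0.798 CPM at 0 h in NT and at 24.7, 25.1 and 26.9 CPM at 4 h, and rose (log2 change 4.75 ± 0.13) there. In IFT88siRNA it rose at 4 h with a log2 change of 4.97 ± 0.18. It was lower in IFT88siRNA than in NT at 8 h (-0.64) and 24 h (-0.84), the call at 8 h being lost without the libraries numbered 1 (adjusted p = 0.0789) or 2 (adjusted p = 0.132) and on log2(TPM + 1) (adjusted p = 0.143). *Pnpt1*, a mitochondrial RNA-degrading enzyme, rose at 4 h (2.40), and *Cycs*, which encodes cytochrome c, rose at 4 h (0.58). *Polrmt*, the mitochondrial RNA polymerase, fell by 0.85 at 2 h and *Tfam*, which packages and activates the mitochondrial genome, by 0.49 at 2 h. The 10 tested regulators of respiratory genes went both ways in NT, with 3 up and 4 down at 1 h, 4 and 3 at 2 h, 4 and 3 at 4 h, 3 and 5 at 8 h, and 3 and 3 at 24 h. Of all genes, 26.0% rose and 25.8% fell at 1 h, 30.7% and 30.2% at 2 h, and 31.2% and 29.7% at 4 h. At 8 h these shares were 27.1% and 25.3%, and at 24 h 21.7% and 23.2%. *Hif1a* rose at every time (1.63 at 4 h), and *Esrra*, a nuclear receptor known to activate respiratory genes, fell at every time (by 0.77 at 2 h). *Gabpb1*, a subunit of NRF2 (GABP), rose at 2 h (0.86) and fell by 0.40 at 8 h, whereas *Nrf1* fell by 0.41 at 2 h, a call lost on log2(TPM + 1) (adjusted p = 0.208). Of the coactivators, *Pprc1* fell by 0.27 at 1 h (lost without the libraries numbered 1, adjusted p = 0.0512) and rose at 4 h (0.84), and *Ppargc1a* rose at 1 h (0.98) and fell by 1.5 at 24 h.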

How the data were processed

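RNA was sequenced from 36 libraries (poly(A)-selected, 75-base read pairs). The authors aligned reads to GRCm38 with Hisat2 2.1.0 and deposited raw counts per gene from featureCounts (Subread 1.6.3, default settings, so unstranded and without multi-mapping reads, Ensembl annotation), and TPM per gene from Salmon 0.9.1. The siRNA concentration is given differently in the sample labels and the study's methods, and the labels' value is quoted.

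The counts were tested as deposited with edgeR 4.0.16 (R 4.3.3; TMM scaling, filterByExpr, quasi-likelihood F-test, two-sided, Benjamini-Hochberg over all genes tested). NT and IFT88siRNA time courses were fitted apart (18 libraries each), siRNA groups within each time (6 libraries), and the difference in response over 36 libraries. SE is the absolute log2 change over the square root of F. A member was called at an adjusted p under 0.05. Alternatives were DESeq2 1.42.0, other scalings and filters, a replicate block, leaving out each replicate number, and limma 3.58.1 on log2(TPM + 1). Scripts were tested on simulated counts. Levels between genes are in TPM or counts per kilobase, and no test was run over groups of genes.

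Named genes were the mitochondrial and *Sdh* genes, fixed isoform groups, members past 1.5-fold, the 3 largest rises and falls per complex in NT and per time between siRNA groups, and the highest and lowest of each complex. The members and lists were chosen with earlier results of these data known. Promoters came from RefSeq (GRCm38.p6) and copies from GENCODE M21 (GRCm38), whose gene IDs matched all 105 members.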

Additional observations from a re-analysis of the deposited data

Results flagged for a closer look

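The response to IL-1β differed between siRNA groups for *Ndufaf4* (joint edgeR test over 5 times, adjusted p = 0.0131) and for *Ndufb6* (adjusted p = 0.0179), by a test of the difference itself. These were 2 of 101 tested members, where 5.53% of all genes passed. For *Ndufaf4* the difference was 0.43 at 1 h and 0.39 at 4 h on the log2 scale, and its 0 h level was lower in all 3 IFT88siRNA libraries. For *Ndufb6* it was 0.41 at 8 h, where all 3 IFT88siRNA libraries stood above the NT libraries. Neither passed without the libraries numbered 1 or without those numbered 2, while 2 members passed with a replicate block.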

How the results depend on the processing

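Counts of members called kept within 1.5 times their value in 154 of 226 alternatives, and 1909 of 2314 values for single genes kept their call. On TPM (log2 with + 1, + 0.1, or + 1 and no filter) NT calls became 45 and 45 at 1 h and 81, 81 and 70 at 4 h, IFT88siRNA calls 25 and 25 at 1 h, 76, 76 and 75 at 4 h and 49, 49 and 45 at 8 h, and calls between siRNA groups 2, 2 and 0 at 0 h, 9 (+ 0.1) and 0 (no filter) at 1 h, and 0 at 2, 4, 8 and 24 h. Upper-quartile scaling gave 63 in NT at 4 h and 40 in IFT88siRNA at 8 h, and scaling without the mitochondrial genome 17 in IFT88siRNA at 24 h. Without a low-count filter there were 29 calls in NT at 24 h, 26, 8, 8, 18 and 11 between siRNA groups from 1 to 24 h, and 9 in the response difference. With all 36 libraries in 1 model the siRNA comparison gave 8, 4 and 23 at 0, 2 and 8 h. Without the fold threshold 90 members in NT and 73 in IFT88siRNA passed over the time course.

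Leaving out 1 replicate number gave 16 to 19, 26 to 52, 28 to 34, 40 to 42 and 7 to 25 calls in NT from 1 to 24 h, 6 to 11, 22 to 31, 31 to 38, 21 to 27 and 5 to 7 in IFT88siRNA, and 4 to 17, 6 to 19, 0 to 4, 0 to 8, 0 to 15 and 0 to 20 between siRNA groups from 0 to 24 h. The joint NT test gave 74 to 86 and the response difference 0 to 2.

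Same-numbered NT and IFT88siRNA libraries correlated by -0.23 to 0.45 in their deviations from group means, over 0.1 in 7 of 18 pairs. These values do not settle whether the numbers pair the libraries. Over all genes, a replicate block raised the calls between siRNA groups at 1, 2 and 8 h (from 407 to 1018 at 2 h). It lowered them at 0, 4 and 24 h (from 2979 to 2450 at 0 h). A replicate block gave 26 calls at 1 h and 6 at 2 h between siRNA groups, 2 in the response difference, and lost *Uqcrfs1* at 24 h (adjusted p = 0.0814).

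Signs turned on TPM for named rises in NT: *Cox7a2l* (-0.028) and *Sdha* (-0.10) at 1 h, *Atp5g3* (-0.019), *Atp5o* (-0.055 and -0.0551), *Cox4i1* (-0.0066), *Cox6b1* (-0.0299 and -0.03), *Cox7a2* (-0.0673 and -0.0675), *Cox7a2l* (-0.0085 and -0.0086), *Cox7b* (-0.0534 and -0.0538), *Cox8a* (-0.059), *Sdhb* (-0.15), *Sdhc* (-0.0153 and -0.0154), *Uqcrfs1* (-0.012) and *mt-Atp6* (-0.067) at 2 h, and *mt-Atp6* (-0.056) at 4 h. The nuclear subunits' median turned to -0.14, -0.14 and -0.13 at 1 h, -0.12, -0.12 and -0.11 at 2 h and -0.0654, -0.0656 and -0.0615 at 24 h in NT, and to -0.0871, -0.0873 and -0.0878 at 1 h, -0.13 at 2 h (-0.0085 with upper-quartile scaling) and -0.0456, -0.0459 and -0.048 at 24 h in IFT88siRNA. As a share of summed TPM, on the log2 scale against 0 h, the nuclear subunit genes changed by -0.14, -0.33 and -0.045 (1, 4 and 24 h) in NT. In IFT88siRNA they changed by -0.0742, -0.12 and -0.27 (1, 2 and 4 h) on that scale. The mitochondrial genes changed by log2 values of -0.13 (NT, 4 h) and of -0.057, 0.16 and 0.0782 (IFT88siRNA, 1, 2 and 4 h). The causes were not tested. Depth limits *Cox4i2*, *Cox6a2* and the other low isoforms.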
